A study of Mus musculus with 28 samples.

Results

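The C/EBP and PAR bZIP transcription factors are represented by 8 genes, found by an exact match of the gene symbol among the 31673 genes of the series-wide tables. They are Cebpa, Cebpb, Cebpd and Cebpg of the C/EBP family, Dbp, Hlf and Tef of the PAR bZIP family, and Nfil3, the E4BP4 repressor. All 8 were measured in 28 mouse RNA-seq libraries of 9 groups and passed the low-count filter of the fit over all groups, which kept 16061 genes.

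Proteins of this class bind DNA as dimers through a basic region joined to a leucine zipper. C/EBP-alpha is known as a regulator of hepatocyte genes, and C/EBP-beta and C/EBP-delta as mediators of the acute phase response. DBP, HLF and TEF are clock-controlled activators that bind D-box elements, and NFIL3 is the repressor that binds the same elements.

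The study followed chemical reprogramming of mouse fibroblasts towards the endoderm lineage. The starting cells were fibroblasts of E13.5 embryos (MEF, 3 libraries, passage 2) and neonatal dermal fibroblasts (MNF, 2 libraries, passage 2). The reprogrammed cells are called ciEPC in the labels, with 10 libraries from MEF and 2 from MNF (passages 2 and 3). The MEF_ciEPC libraries form 2 numbered series, the first at passages 2, 3, 4, 6, 10 and 22 and the second at passages 1, 5, 10 and 22. Cells taken from ciEPC of passages 3 to 10 towards hepatocytes are called ciHep (3 libraries from MEF, 2 from MNF). The other groups were OG2 embryonic stem cells at passage 5 (ESC, 2 libraries), EPC derived from embryonic stem cells of passages 10 to 15 (ESC_EPC, 2 libraries) and passage 0 hepatocytes isolated from adult liver (pHep, 2 libraries). Every group carried the Oct4-GFP transgenic allele on a CBA/CaJ X C57BL/6J background, and for MEF, MEF_ciEPC, MEF_ciHep, ESC and ESC_EPC this was crossed to 129Sv/Jae females. Origin (MEF or MNF) therefore cannot be told apart from strain and age. The labels do not say that replicates came from separate cultures or animals, so p-values measure only the spread between these samples. The hour of harvest, which bears on clock-controlled genes, is not given in the labels.

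Libraries held 1439670 to 6133147 expected counts. The library labelled MEF_ciEPC series 2 passage 22 stood apart: its expression correlated with the ESC mean at r = 0.952, against 0.728 to 0.779 for the other 9, and its 8 pluripotency markers summed to 13850 TPM against a group median of 473 TPM. MNF_ciHep went against its label: 12 hepatocyte markers summed to 354.3 and 1094 TPM, against 15880 to 34700 in MEF_ciHep and 20900 and 37460 in pHep. Keratin gene Krt18 alone gave 300.1 and 915.1 TPM of that sum, and albumin (Alb) was at 0 and 0.56 TPM. In ESC_EPC, 7 of the 12 hepatocyte markers were at 0. The files' lengths and effective lengths imply a read or fragment length of 186.6 to 195.7 bases in ESC_EPC, near 74 in ESC, the fibroblasts and MNF_ciEPC, and near 50 in pHep, MEF_ciEPC and both kinds of ciHep, so this length cannot be told apart from the group in comparisons that cross these classes.

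The upstream sequences of 4 genes are shown because their windows lie outside annotated exons of protein-coding genes and the genes differ in behaviour: Cebpa and Cebpb have different orders of level across the groups, Hlf is the least abundant member and Tef the most even. Each is the 250 bases before a RefSeq start site on GRCm38.p6, written 5′ to 3′ on the gene's strand, with matches to the searched motifs in capitals. RefSeq windows were held for 7 of the 8 members, 8 windows in all.
Cebpa, chr7:35119043-35119292, plus strand: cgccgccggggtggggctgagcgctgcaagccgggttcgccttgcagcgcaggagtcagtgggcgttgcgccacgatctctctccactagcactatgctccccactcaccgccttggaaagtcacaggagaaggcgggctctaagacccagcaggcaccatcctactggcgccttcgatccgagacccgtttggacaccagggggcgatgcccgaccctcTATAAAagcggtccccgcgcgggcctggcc
Cebpb, chr2:167688665-167688914, plus strand: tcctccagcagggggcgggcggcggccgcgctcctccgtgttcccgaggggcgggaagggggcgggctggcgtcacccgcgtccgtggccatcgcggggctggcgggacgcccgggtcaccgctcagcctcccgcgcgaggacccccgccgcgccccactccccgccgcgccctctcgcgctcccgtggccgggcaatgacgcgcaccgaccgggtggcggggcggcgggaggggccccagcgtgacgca
Hlf, chr11:90390918-90391167, minus strand: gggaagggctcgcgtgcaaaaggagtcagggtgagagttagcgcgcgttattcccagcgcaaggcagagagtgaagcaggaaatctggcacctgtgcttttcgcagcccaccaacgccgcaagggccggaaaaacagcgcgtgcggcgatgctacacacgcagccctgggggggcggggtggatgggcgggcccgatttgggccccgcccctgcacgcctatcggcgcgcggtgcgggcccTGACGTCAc
Tef, second start site, chr15:81811164-81811413, plus strand: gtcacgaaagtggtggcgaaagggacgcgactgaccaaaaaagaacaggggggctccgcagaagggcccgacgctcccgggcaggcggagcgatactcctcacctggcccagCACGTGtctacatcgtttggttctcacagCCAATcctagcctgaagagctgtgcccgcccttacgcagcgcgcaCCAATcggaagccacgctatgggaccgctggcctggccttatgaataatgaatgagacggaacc
The motifs searched on both strands were the E-box CACGTG, the D-box TTATGTAA or TTACGTAA, the C/EBP core TTGCNNAA, the cAMP response element TGACGTCA, the TATA sequence TATAAA and the sequence CCAAT. The TATA sequence stood 30 to 25 bases before the Cebpa start, and 12.4% of the 32851 RefSeq windows hold it. TGACGTCA stood 9 to 2 bases before the Hlf start (1.55% of windows). CACGTG, the element bound by CLOCK and BMAL1, was found 138 to 133 bases before the second Tef start and also before the first one (6.02% of windows). CCAAT, which occurred at 2 places in the second Tef window, is in 33.9% of windows. No window of the 7 members matched the D-box (0.931% of windows) or the C/EBP core (9.56%). The Cebpb window had a GC content of 81.6% and no searched motif, against a median of 52.4% over all windows.

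In GRCm38, Cebpa lies at chr7:35119293-35121928 on the plus strand and Cebpg at chr7:35046422-35056573 on the minus strand, 62719 bases apart. Cebpb (chr2:167688915-167690418, plus), Cebpd (chr16:15887286-15891031, plus) and Dbp (chr7:45705088-45710203, plus) overlap the protein-coding genes Tmem189, Spidr and Sphk2 on the opposite strand. Their expected counts were fractional in 92.9%, 100% and 92.9% of libraries, so shared reads were divided and their levels are less certain than those of Cebpa, Hlf, Tef and Nfil3, whose counts were whole in every library. Cebpg, with no protein-coding gene overlapping it, had fractional counts in 42.9% of libraries, so its level is also less certain. Hlf (chr11:90336536-90390895, minus), Tef (chr15:81802421-81826863, plus) and Nfil3 (chr13:52967209-52981073, minus) complete the set. Whether the counting used strand is not given in the sources used here.

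Levels below are TPM, which is scaled per transcript length, and differences are log2 fold changes fitted to counts. A gene is called at an adjusted p under 0.05 (edgeR quasi-likelihood test, Benjamini-Hochberg over all genes tested) and a change of at least 2-fold. Statements that library values overlap or lie apart describe the same samples as the calls. They are no separate test, and no share over all genes is given for them. In bulk RNA, fewer cells of a type and less RNA per cell cannot be told apart.

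**Figure D1:**
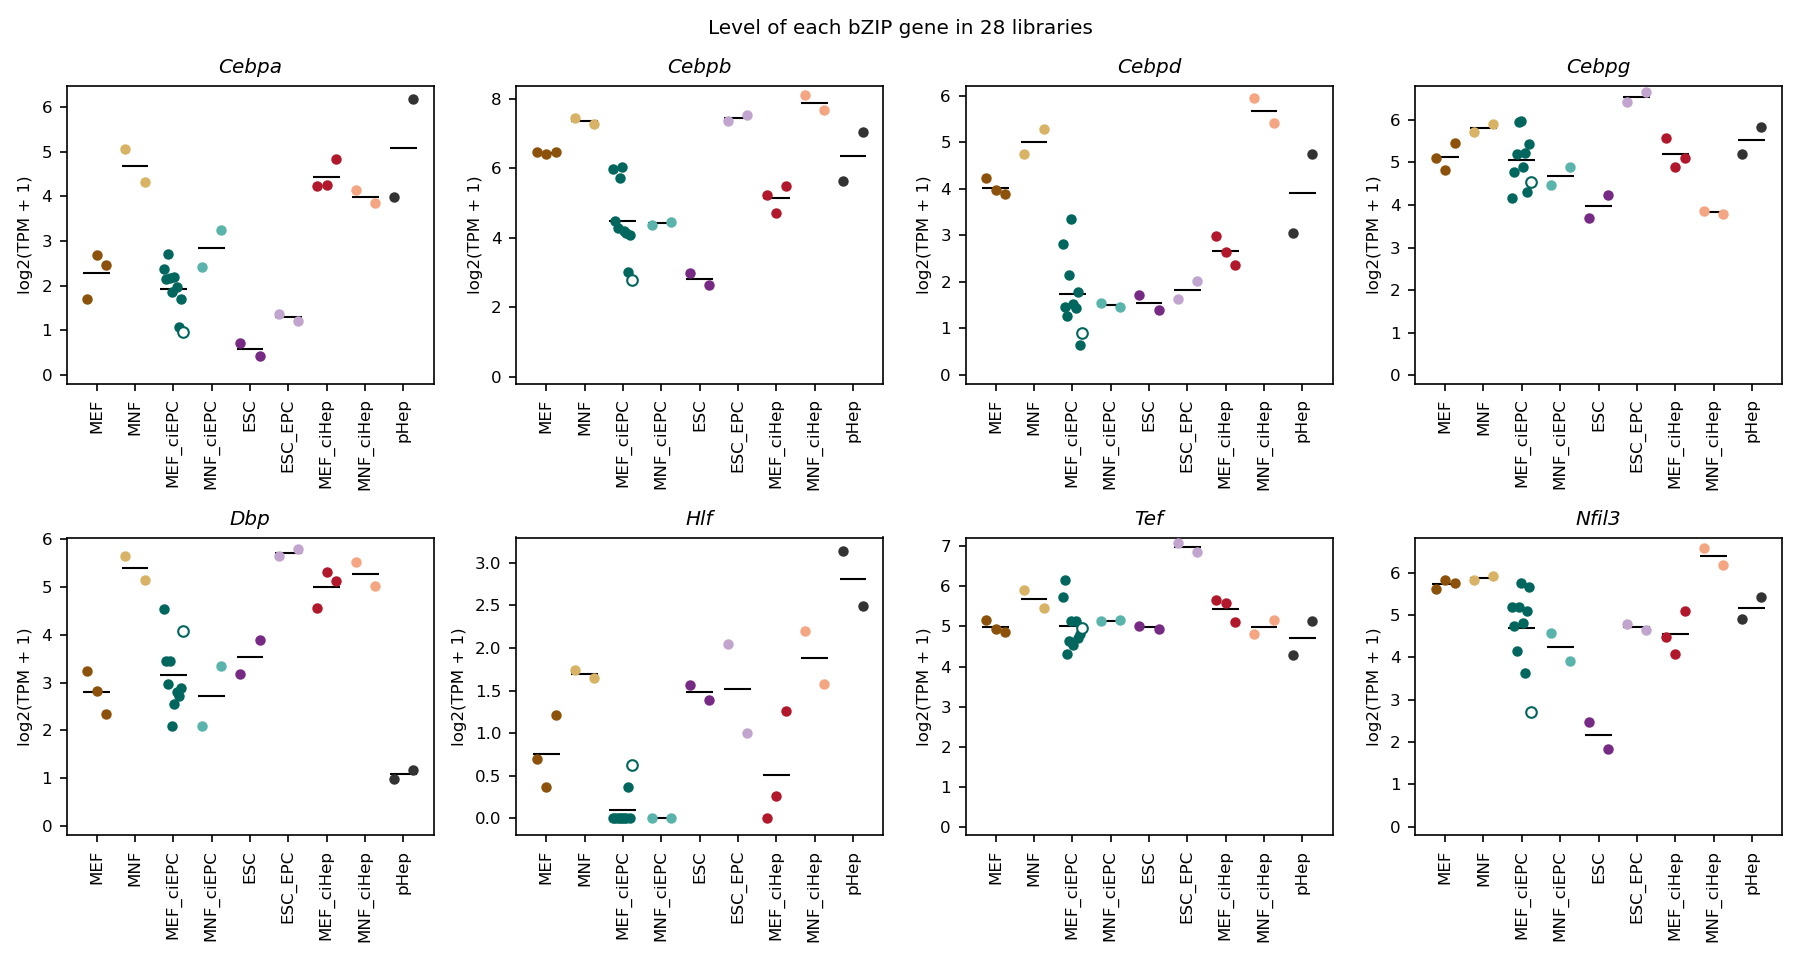
Level of each gene as log2(TPM + 1) by group; each point is 1 library, the black line is the mean of the plotted values and the open circle is the library labelled MEF_ciEPC series 2 passage 22. Cebpb and Cebpd are high in both fibroblast groups and in MNF_ciHep, Dbp is lowest in pHep, and Hlf is at 0 in 11 of the 28 libraries.

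Cebpa, the hepatocyte and adipocyte regulator, was highest in pHep, MNF and the ciHep groups. It measured 14.79 and 71.89 TPM in pHep, 32.23 and 19.09 in MNF, and 17.72, 18.14 and 27.44 in MEF_ciHep. MNF_ciHep gave 16.65 and 13.36 TPM, MNF_ciEPC 4.34 and 8.55, and MEF 2.26, 5.47 and 4.5. The 10 MEF_ciEPC libraries ran from 0.95 to 5.54 TPM with a median of 3.18 (3.45 without series 2 passage 22). The lowest values were in ESC_EPC (1.58 and 1.31 TPM) and ESC (0.64 and 0.35 TPM). Every library of the 4 highest groups lay above every library of the other 5. Among the 4, the pHep range contained those of MNF and MEF_ciHep and overlapped that of MNF_ciHep. MNF_ciEPC, MEF, MEF_ciEPC and ESC_EPC overlapped as neighbours in that order, with ESC below them.

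Cebpa was high in MNF, which lacks hepatocyte markers, and in MNF_ciHep, where they summed to 354.3 and 1094 TPM, mostly Krt18. In the 2 MNF libraries the 12 hepatocyte markers summed to 8.2 and 5.57 TPM, with 9 of the 12 at 0, while Cebpa overlapped its MEF_ciHep range. The 12 adipocyte markers summed to 652.9 and 472.8 TPM in MNF, against 26.87 to 42.99 TPM in MEF, with Adig, Cidec, Lep and Retn at 0. Lpl alone gave 604.15 and 435.69 TPM of the MNF sums, and Adipoq was at 2.41 and 0.84 TPM. The part of adipocyte-like cells in the Cebpa level of MNF was not tested.

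**Figure D2:**
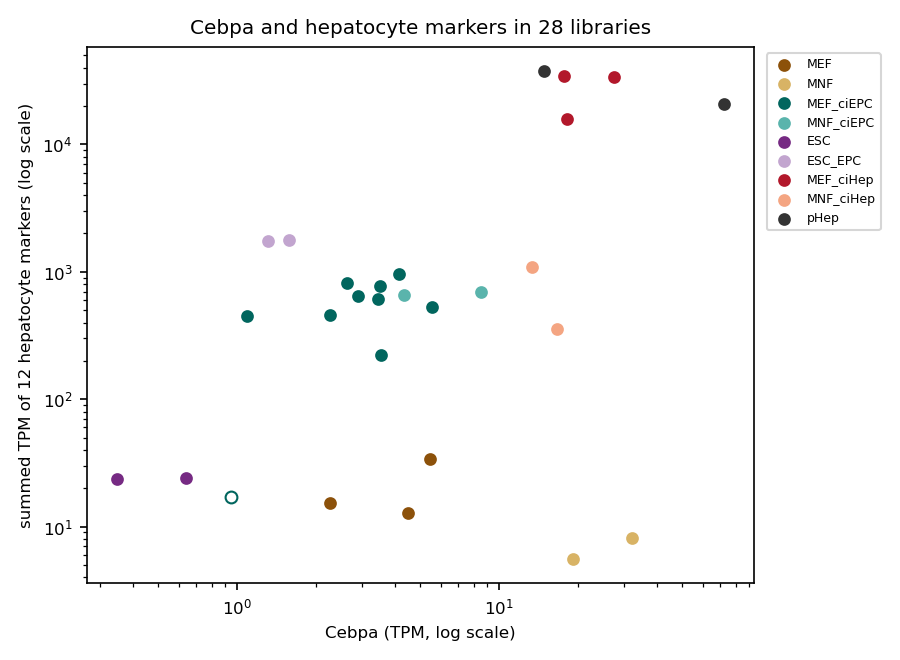
Cebpa in TPM (log axis) against the summed TPM of 12 hepatocyte markers (log axis); each point is 1 library and the open circle is MEF_ciEPC series 2 passage 22. MEF_ciHep and pHep lie above 15880 TPM of markers, while MNF has similar Cebpa with at most 8.2 TPM.

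Cebpb, which acts in the acute phase, adipogenic and stress responses, was the most abundant member by mean TPM in 5 groups (MNF_ciHep, ESC_EPC, MNF, pHep and MEF). It measured 272.63 and 202.81 TPM in MNF_ciHep, 163.02 and 183.42 in ESC_EPC, and 172.21 and 153.5 in MNF. MEF gave 87.54, 84.64 and 87.22 TPM, which fell between the pHep values of 48.41 and 132.3. MEF_ciHep (36.39, 25.44 and 44.13 TPM) and MNF_ciEPC (19.87 and 20.87 TPM) were lower. MEF_ciEPC ranged from 5.87 to 65.37 TPM with a median of 17.91, and ESC was lowest at 6.95 and 5.19 TPM. MNF_ciHep stood above all other groups, and ESC_EPC and MNF overlapped in second place.

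Cebpd, the partner of Cebpb in the acute phase, had the same leading groups except ESC_EPC. It measured 60.47 and 41.76 TPM in MNF_ciHep and 25.71 and 37.83 in MNF. MEF gave 17.64, 14.69 and 13.71 TPM, within the pHep values of 7.23 and 25.96, and MEF_ciHep gave 6.86, 5.24 and 4.16. In MEF_ciEPC it ranged from 0.55 to 9.14 TPM (median 1.80). ESC_EPC (2.1 and 3.05 TPM), ESC (1.61 and 2.26) and MNF_ciEPC (1.72 and 1.91) overlapped at the bottom of the order. In ESC_EPC, high Cebpb thus stood beside low Cebpd: the median log2 ratio of Cebpb to Cebpd, with 1 TPM added to each, was 5.62 there and 1.27 to 2.93 in the other groups.

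Cebpg, which lacks an activation domain and pairs with other bZIP proteins including ATF4, was highest in ESC_EPC at 83.82 and 99.03 TPM. It was lowest in MNF_ciHep (13.47 and 12.87 TPM) and ESC (12 and 17.87 TPM), which overlapped. The other 6 groups had means between 24.92 and 55.15 TPM, and each overlapped its neighbour among them.

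Dbp, the PAR factor with the strongest known daily rhythm in liver, was almost absent from the hepatocyte libraries. It had 0.98 and 1.26 TPM in pHep, from 1.16 and 1 expected counts. It measured 48.99 and 54.73 TPM in ESC_EPC, 49.05 and 34.5 in MNF, 45.3 and 31.67 in MNF_ciHep, and 22.64, 39.08 and 33.86 in MEF_ciHep. These 4 groups overlapped one another in order and lay above the rest. ESC (8.1 and 13.9 TPM), MEF_ciEPC (3.29 to 22.33, median 6.63), MNF_ciEPC (3.28 and 9.2) and MEF (8.53, 6.04 and 4.08) also overlapped, apart from pHep below them.

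Hlf, known from liver and haematopoietic cells, was near the limit of detection. The highest levels were in pHep, 7.82 and 4.62 TPM, which rest on 11 and 9 counts. It measured 3.58 and 1.98 TPM in MNF_ciHep and 2.34 and 2.14 in MNF, each from 31 counts over the group. ESC_EPC gave 3.12 and 1 TPM and ESC 1.97 and 1.62, and these overlapped. MEF gave 0.62, 0.29 and 1.31 TPM and MEF_ciHep 0, 0.2 and 1.39 TPM. No count was found in either MNF_ciEPC library, which allows up to 3 counts in the group, or in 8 of the 10 MEF_ciEPC libraries. The 4 counts of MEF_ciEPC came from series 2, with 1 at passage 5 and 3 at passage 22. Hlf levels also depend on the effective length used, which ran from 909.75 to 5592.47 bases between libraries.

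Tef, the third PAR factor, was the most even member: the highest group mean was 4.72 times the lowest. Cebpg was next at 6.94 times, against 87.6 times for Cebpa and 39.2 for Cebpb. ESC_EPC was highest at 133.33 and 115.03 TPM, above every other library. The other 8 groups had means of 26.34 (pHep) to 50.95 TPM (MNF), and each overlapped the next in order.

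Nfil3, the repressor, was highest in MNF_ciHep at 95.4 and 71.61 TPM. MNF gave 56.1 and 59.81 TPM and MEF 47.59, 55.62 and 53.25, and these 3 groups did not overlap. MEF_ciEPC ranged from 5.59 to 52.65 TPM with a median of 30.2 and overlapped MEF above it. The pHep (28.79 and 42.11 TPM), ESC_EPC (24.17 and 26.51), MEF_ciHep (15.98 to 32.98) and MNF_ciEPC (14.11 and 22.69) values lay within that range. ESC was lowest at 4.59 and 2.59 TPM.

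The balance between members differed by group. Cebpb held 50.2% of the summed TPM of the 8 genes in MNF_ciHep, on average, and 8.70% in ESC, where Tef held 43.4%. Cebpa held 14.3% in pHep (9.12 and 19.5% in the 2 libraries) and 8.80 to 13.0% in MEF_ciHep, but 3.12 and 3.25% in MNF_ciHep. The log2 ratio of Cebpa to Cebpb, with 1 TPM added to each, was -0.998 to -0.466 in MEF_ciHep and -1.65 and -0.871 in pHep. It was -3.95 and -3.83 in MNF_ciHep and lowest in ESC_EPC at -6.32 and -5.99. The log2 ratio of summed Dbp, Hlf and Tef to Nfil3 was highest in ESC (2.93 and 3.68) and ESC_EPC (2.76 and 2.77), and lowest in MEF (-0.65 to -0.11). In MNF_ciHep (-0.328 and -0.07) and pHep (-0.077 and -0.069) activators and repressor were near equal, whereas MEF_ciHep had 1.04 to 2.36.

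**Figure D3:**
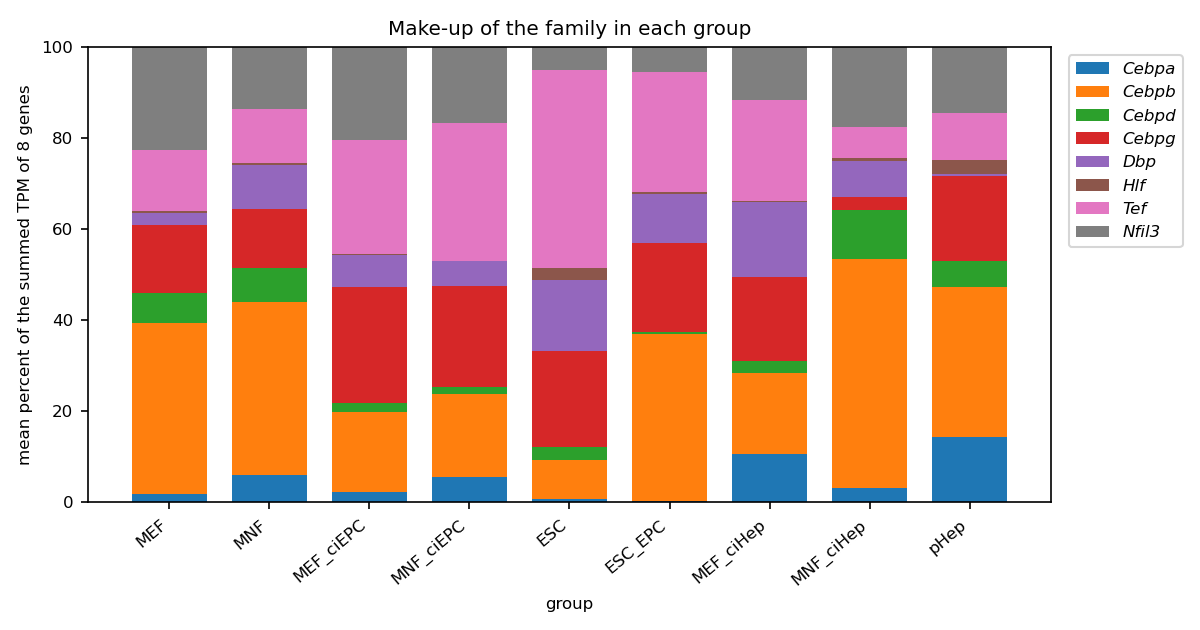
Mean percent of the summed TPM of the 8 genes held by each gene, by group (stacked bars from 0 to 100%). Cebpb fills 50.2% of the bar in MNF_ciHep, Tef 43.4% in ESC, and Cebpa is widest in pHep and MEF_ciHep.

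The first comparison asked how the members differed between fibroblasts and the ciEPC made from them. In MEF_ciEPC against MEF, Cebpd fell by 2.77 ± 0.45 (SE) on the log2 scale (adjusted p = 0.000122, edgeR) and Cebpb fell by 2.03 ± 0.40 (adjusted p = 0.000708). Nfil3 fell by 1.08 ± 0.27 (adjusted p = 0.00402) and Hlf fell by 2.58 ± 0.98 (adjusted p = 0.0422, edgeR). Cebpb and Cebpd were lower in all 10 MEF_ciEPC libraries than in any MEF library, while Nfil3 overlapped. So 4 of the 8 were lower and none higher, where 15.8% of all genes tested were called lower, 17.6% higher and 33.4% in either direction. The 4 uncalled genes had log2 differences of -0.77 (Cebpa), -0.07 (Cebpg), 0.31 (Dbp) and -0.18 (Tef), with edgeR adjusted p from 0.269 to 0.856. Without series 2 passage 22, Nfil3 was under 2-fold (-0.91, adjusted p = 0.0088, edgeR), and Hlf had 1 count against 13, a ratio of 27.8 (95% exact counting interval 4.18 to 1181). The Hlf call held without series 2 passage 22 (adjusted p = 0.00317, edgeR). It was lost without MEF replicate 2 or MEF replicate 3 (adjusted p = 0.0532 and 0.158, edgeR), and without MEF_ciEPC series 1 (-1.33). The Nfil3 change was under 2-fold without series 2 (-0.97).

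In MNF_ciEPC against MNF, 7 of the 8 members were lower and none higher, where 21.9% of all genes tested were called lower, 18.4% higher and 40.2% in either direction. Cebpd fell by 4.27 ± 0.52 (adjusted p = 6.59e-06, edgeR), Dbp fell by 3.15 ± 0.36 (adjusted p = 3.89e-06) and Cebpb fell by 3.12 ± 0.45 (adjusted p = 3.24e-05). Cebpa fell by 2.12 ± 0.56, Nfil3 fell by 1.78 ± 0.30 and Cebpg fell by 1.18 ± 0.32 (adjusted p = 0.00468, 0.000135 and 0.00541, edgeR). Hlf was at least 13.0-fold lower, from 0 counts against 31 with a floor of 3 counts over the group. For each of these 7 genes both MNF_ciEPC libraries lay below both MNF libraries. Tef was 0.74 ± 0.22 lower (adjusted p = 0.00878, edgeR), under the 2-fold minimum. Cebpa was not called without MNF replicate 1 (-1.65, adjusted p = 0.0527, edgeR) or MNF_ciEPC replicate 1 (-1.65, adjusted p = 0.0731). Cebpg was not called without MNF replicate 2 (-0.99, under 2-fold) or MNF_ciEPC replicate 1 (-0.82, adjusted p = 0.0929, edgeR).

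The difference between the 2 origins in this step was called for Dbp. The change in MNF cells minus that in MEF cells was -3.46 ± 0.48 for Dbp (adjusted p = 0.000515, edgeR), where 8.93% of all genes tested were called in that direction, 6.16% in the other and 15.1% in either. The starting levels already differed: Dbp was at 49.05 and 34.5 TPM in MNF and 4.08 to 8.53 TPM in MEF, while the ciEPC groups overlapped. For the other 7 members the difference was not called (adjusted p from 0.083 to 0.245, edgeR). Leaving out a sample gave a second call for Cebpb (without MEF_ciEPC series 2, -1.66, adjusted p = 0.0227, edgeR), Cebpg (without MEF replicate 3, -1.34, adjusted p = 0.0439) or Hlf (without MEF_ciEPC series 1, adjusted p = 0.0413).

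Genes around the family moved as follows in the ciEPC step. Over all genes tested, 17.6% were called higher and 15.8% lower from MEF, and 18.4% and 21.9% from MNF. The glucocorticoid and IL-6 list held 13 tested genes, both pathway members and genes that these signals induce, such as Tsc22d3. Of these, 4 rose and 5 fell in MEF_ciEPC against MEF, and 4 rose and 7 fell in MNF_ciEPC against MNF (list medians -0.06 and -1.28, all genes 0.12 and 0.00). Il6st, the shared IL-6 receptor subunit, fell by 2.50 ± 0.20 and 3.43 ± 0.22, and the kinase gene Jak1 fell by 1.87 ± 0.15 and 2.17 ± 0.16. Of 14 integrated stress response genes, 2 rose and 5 fell from MEF and 1 rose and 6 fell from MNF (medians -0.12 and -0.79). In the first, the serine synthesis gene Phgdh fell by 1.67 ± 0.24, and in the second the pseudokinase gene Trib3 fell by 5.52 ± 0.55. Of 18 clock genes, 6 rose and none fell from MEF (median 0.42), and 3 rose and 3 fell from MNF (median -0.40). Cry1, a clock repressor, rose by 1.78 ± 0.23 and Nr1d2, a REV-ERB gene, fell by 2.19 ± 0.34 from MNF, while Rora and Cry2 rose by 1.48 ± 0.27 and 1.02 ± 0.25 from MEF. Of 14 tested acute phase genes, 4 rose from MEF, but from MNF 1 rose and 3 fell, led by complement gene C3 (17.59 TPM median in MNF, 0.36 in MNF_ciEPC).

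**Figure D4:**
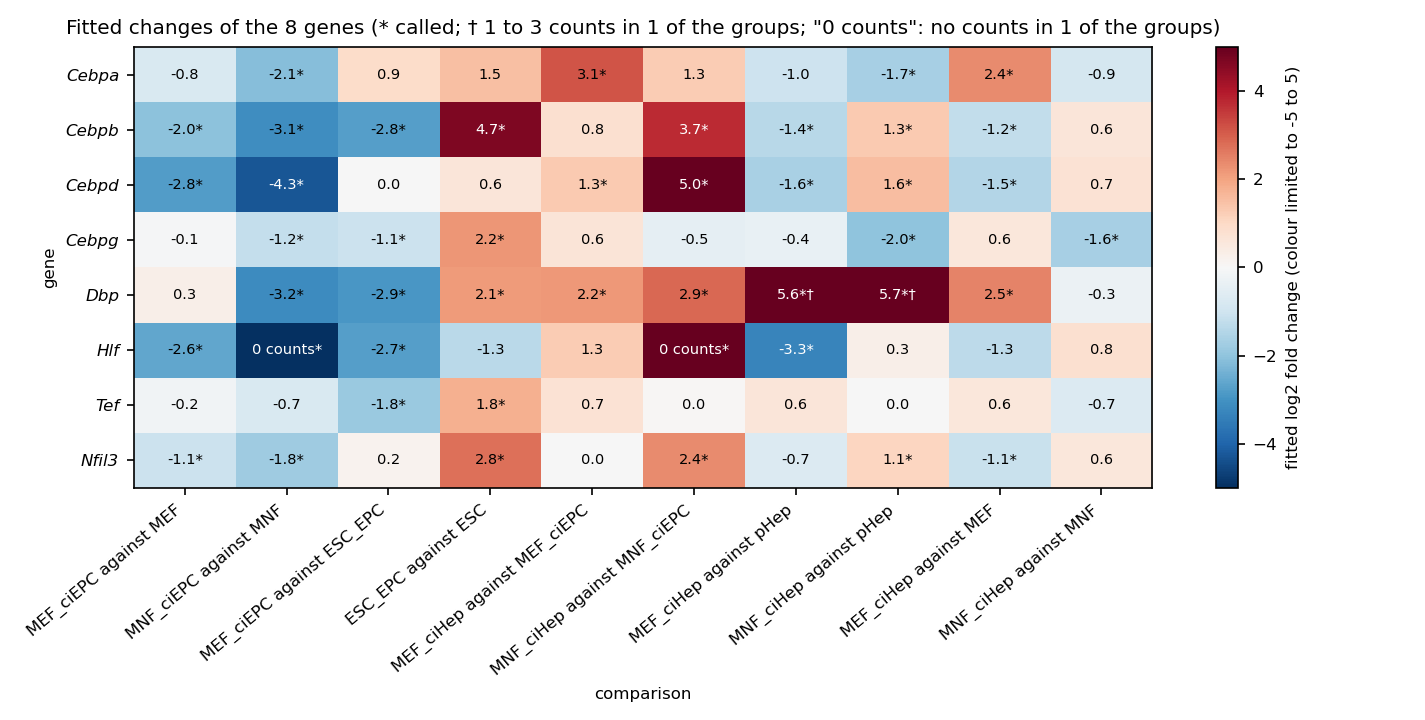
Fitted log2 fold change of each gene (rows) in 10 comparisons (columns), first group minus second; colour gives size and direction and an asterisk marks a call. Cells marked "0 counts" have a group without counts and a dagger marks a group with 1 to 3 counts, where the fitted value is no bound. Cebpb and Cebpd are lower in both ciEPC groups than in fibroblasts, and Dbp is higher in both ciHep groups than in ciEPC or pHep.

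Over the passages of MEF_ciEPC, none of the 7 members tested had a trend with log2 passage (edgeR called 3 of 12390 genes, or 0.0242%, with 0.00807% rising and 0.0161% falling, and Hlf was below the filter). Slopes ran from -0.23 ± 0.13 (Tef) to 0.13 ± 0.22 (Nfil3) per doubling of passage, with edgeR adjusted p from 0.515 to 0.98. At an unadjusted p under 0.05 the count with all 10 libraries was also 0 of 7, and DESeq2 and limma called 0. Without series 2 passage 22, slopes were steeper for Tef (-0.37 ± 0.127), Dbp (-0.486 ± 0.214) and Nfil3 (0.315 ± 0.155). These were not called (adjusted p = 0.205, 0.318 and 0.372, edgeR). The slopes of Cebpa (-0.165 ± 0.162) and Cebpb (-0.103 ± 0.199) were then less steep, and those of Cebpd and Cebpg were 0.012 and 0.054. Cebpb varied without order: in series 1 it measured 62.18, 21.42, 18.29, 51.7, 65.37 and 17.52 TPM at passages 2, 3, 4, 6, 10 and 22. Cebpd followed a like course at 5.96, 1.73, 1.4, 3.4, 9.14 and 1.86 TPM. In series 2, Cebpb measured 16.48, 7.08, 16.07 and 5.87 TPM at passages 1, 5, 10 and 22, below all of series 1. Dbp was highest at series 1 passage 2 (22.33 TPM) and next at series 2 passage 22 (15.85 TPM), and Nfil3 was lowest at the latter (5.59 TPM), near the ESC values of 4.59 and 2.59.

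**Figure D5:**
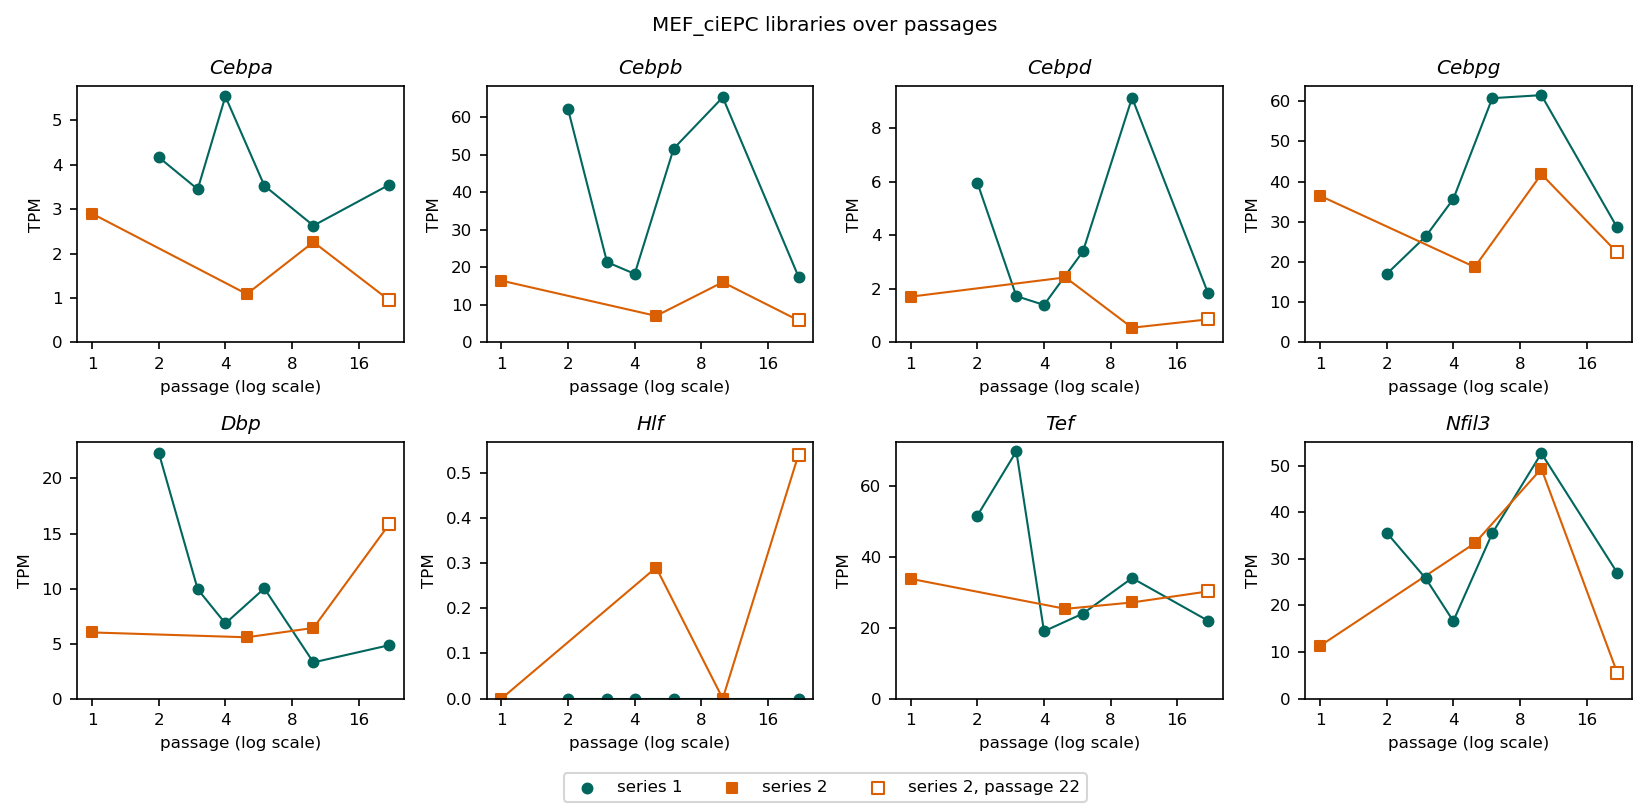
TPM of each gene against passage (log axis) in the 2 numbered series of MEF_ciEPC; each marker is 1 library and the open square is series 2 passage 22. Cebpb in series 1 is at 62.18 TPM at passage 2 and 17.52 at passage 22, with 65.37 at passage 10 between them.

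The EPC derived from stem cells had higher levels than ESC for 5 members. In ESC_EPC against ESC, Cebpb, Nfil3, Cebpg, Dbp and Tef rose and none fell, where 18.6% of all genes tested were called higher, 14.7% lower and 33.2% in either direction. Cebpb rose by 4.68 ± 0.53 (adjusted p = 8.12e-06, edgeR), Nfil3 rose by 2.75 ± 0.37 (adjusted p = 3.93e-05) and Cebpg rose by 2.20 ± 0.34 (adjusted p = 0.000106). Dbp rose by 2.15 ± 0.34 and Tef rose by 1.78 ± 0.22 (adjusted p = 0.000158 and 1.75e-05, edgeR). In each of the 5 both ESC_EPC libraries lay above both ESC libraries. Cebpa (1.52 ± 0.99), Cebpd (0.59 ± 0.60) and Hlf (-1.35 ± 0.88) were not called, with edgeR adjusted p of 0.234, 0.449 and 0.233. The effect of the different fragment length of ESC_EPC on these values cannot be told apart from the group.

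Of 18 clock genes, 10 rose and none fell (median 1.32, all genes 0.00), among them Bhlhe41 at 6.86 ± 0.49, Rora at 4.09 ± 0.37 and Bhlhe40 at 3.35 ± 0.35. Over all genes tested, 18.6% were called higher and 14.7% lower. Of 17 tested bZIP partners, 8 rose and none fell (median 0.72), led by the AP-1 gene Fosl2 at 4.76 ± 0.41, Maf and Creb1. Of 14 integrated stress response genes, 6 rose and 1 fell (median 0.89). Ddit3, which encodes the C/EBP-related CHOP, rose by 3.00 ± 0.60, from a mean of 22.68 TPM in ESC to 236.2 TPM in ESC_EPC. Of the 14 tested liver targets of C/EBP factors, none rose and 1 fell, with Alb at 0 in both groups.

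Against ESC_EPC, MEF_ciEPC had 5 members lower and none higher, where 14.9% of all genes tested were called lower, 16.8% higher and 31.7% in either direction. Dbp was 2.90 ± 0.34 lower in log2 (adjusted p = 1.07e-05, edgeR), Cebpb 2.77 ± 0.43 and Tef 1.84 ± 0.22 (adjusted p = 0.000127 and 1.1e-05). Every MEF_ciEPC library lay below both ESC_EPC libraries for these 3 genes. Cebpg was 1.07 ± 0.31 lower (adjusted p = 0.0111, edgeR), and this was not called without series 2 passage 22 (-0.999, under 2-fold), without all of series 2 (-0.90) or without ESC_EPC replicate 1 (-0.95). Hlf was 2.75 ± 1.02 lower from 4 counts against 12 (adjusted p = 0.0408, edgeR). Without series 2 passage 22 it had 1 count against 12, a ratio of 31.4 (95% exact counting interval 4.65 to 1343). It was not called without MEF_ciEPC series 1, ESC_EPC replicate 1 or ESC_EPC replicate 2 (adjusted p = 0.252, 0.248 and 0.0739, edgeR). This comparison shares its ESC_EPC samples with the one before and its MEF_ciEPC samples with the first.

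The next comparison asked how the members differed between ciEPC and the ciHep made from them. In MEF_ciHep against MEF_ciEPC, Cebpa rose by 3.13 ± 0.55 (adjusted p = 0.000295, edgeR), Dbp rose by 2.19 ± 0.32 (adjusted p = 5.65e-05) and Cebpd rose by 1.32 ± 0.45 (adjusted p = 0.0252). All 3 MEF_ciHep libraries lay above all 10 MEF_ciEPC libraries for Cebpa and Dbp, while Cebpd overlapped. These are 3 of 8 members, where 17.8% of all genes tested were called higher, 14.8% lower and 32.7% in either direction, and no member fell. Cebpb was 0.79 ± 0.40 higher (adjusted p = 0.12, edgeR), and was called without MEF_ciEPC series 1 (1.89, adjusted p = 0.00206). Cebpd was not called without MEF_ciEPC series 2 (0.88, adjusted p = 0.18, edgeR) or MEF_ciHep replicate 1 (1.10, adjusted p = 0.0794). It was also not called with limma on log2(TPM + 1) (0.89, adjusted p = 0.124) or with only the compared groups in the fit (1.37, adjusted p = 0.0681, edgeR). Hlf was not called (5 counts against 4). Without series 2 passage 22 it had 5 counts against 1, a ratio of 11.1 (95% exact counting interval 1.25 to 527), and it was not called. Without all of series 2, which holds every Hlf count of MEF_ciEPC, it was called (adjusted p = 0.0256, edgeR).

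In MNF_ciHep against MNF_ciEPC, 5 members rose and none fell, where 19.5% of all genes tested were called higher, 10.8% lower and 30.3% in either direction. Cebpd rose by 4.999 ± 0.531 (adjusted p = 6.44e-06, edgeR), Cebpb rose by 3.73 ± 0.46 (adjusted p = 2.2e-05), Dbp rose by 2.88 ± 0.37 (adjusted p = 2.95e-05) and Nfil3 rose by 2.36 ± 0.31 (adjusted p = 3.29e-05). Hlf was at least 24.9-fold higher, from 31 counts against 0 with the floor of 3 counts over the group. Both MNF_ciHep libraries lay above both MNF_ciEPC libraries for these 5 genes. Cebpa, at 16.65 and 13.36 against 4.34 and 8.55 TPM, did not overlap either, but its log2 difference of 1.26 ± 0.57 was not called (adjusted p = 0.0912, edgeR).

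The difference between origins in this step was called for Cebpd (3.69 ± 0.67, adjusted p = 0.000658, edgeR), Cebpb (2.95 ± 0.58, adjusted p = 0.00131) and Nfil3 (2.39 ± 0.40, adjusted p = 0.000365), each larger in MNF cells. It was also called for Hlf (adjusted p = 0.0243, edgeR), with no finite size because MNF_ciEPC had no counts. These are 4 of 8, where 17.7% of all genes tested were called in that direction, 12% in the other and 29.6% in either. The Hlf call was lost without series 2 passage 22 (adjusted p = 0.121, edgeR), all of series 2, MNF_ciEPC replicate 1, MNF_ciEPC replicate 2 or MNF_ciHep replicate 1 (adjusted p = 1, 0.0795, 0.0715 and 0.0699). For Cebpa the difference was -1.87 ± 0.77 (adjusted p = 0.0717, edgeR), and it was called without MEF_ciEPC series 1 (-2.66, adjusted p = 0.0367). For Cebpg it was -1.09 ± 0.45 (adjusted p = 0.0721, edgeR), and it was called without MNF_ciEPC replicate 1 or MEF_ciHep replicate 2 (-1.41 and -1.27, adjusted p = 0.0386 and 0.0418). Fibroblast markers, which summed to 4726 and 6257 TPM in MNF_ciHep and 513.8 to 688.8 TPM in MEF_ciHep, moved with this contrast, and their part in it was not tested.

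Known targets of the factors were counted in the same comparisons. Over all genes tested, 17.8% were called higher and 14.8% lower from MEF_ciEPC, and 19.5% and 10.8% from MNF_ciEPC. Of 14 tested liver targets of C/EBP factors, 10 rose and none fell in MEF_ciHep against MEF_ciEPC (median 3.80, all genes -0.08), led by Alb, the transthyretin gene Ttr and Apob. Ttr was at 592.4 to 843.9 TPM in MEF_ciHep and at most 5.72 TPM in MEF_ciEPC. In MNF_ciHep against MNF_ciEPC, 3 of 14 rose (median 1.47, or 0.00 with genes lacking counts in a group set to their bounds), namely Adh1, Tdo2 and Ttr, and Ttr reached 6.67 and 15.57 TPM. Of 14 acute phase genes, 11 rose from MEF_ciEPC (median 6.02) and 9 from MNF_ciEPC (median 5.55, or 3.49 with bounds), and none fell. Lcn2, the lipocalin gene, was at 412 and 860.4 TPM in MNF_ciHep and 0 in MNF_ciEPC, and C3 was at 44.89 and 57.7 TPM against 0.15 and 0.57. Of 8 tested PAR bZIP targets, 6 rose and 1 fell from MEF_ciEPC (median 2.20) and 2 rose from MNF_ciEPC (median 2.10, or 0.92 with bounds). Por, the electron donor of cytochromes P450, rose by 2.30 ± 0.27 and 3.41 ± 0.29, and the glutathione transferase gene Gstt1 rose by 4.19 ± 0.61 in the first.

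Of 18 clock genes, 4 rose and 2 fell in MEF_ciHep against MEF_ciEPC (median 0.38), and 3 rose and 1 fell in MNF_ciHep against MNF_ciEPC (median 0.32, all genes 0.05). Over all genes tested, 17.8% were called higher and 14.8% lower in the first, and 19.5% and 10.8% in the second. Nr1d1, the REV-ERB-alpha gene, rose by 1.78 ± 0.32 and 3.18 ± 0.37, and Cry1 fell by 2.20 ± 0.21 and 2.15 ± 0.25. Among 17 bZIP partners, 8 rose and none fell from MNF_ciEPC (median 0.97), among them Fosl1 and Junb, whereas 2 rose and 3 fell from MEF_ciEPC (median -0.11), where Jun fell by 2.29 ± 0.46. Of the 13 glucocorticoid and IL-6 genes, 8 rose and none fell from MEF_ciEPC (median 1.60). Tsc22d3, a glucocorticoid-induced gene, rose by 3.60 ± 0.27 and Fkbp5 rose by 1.67 ± 0.18 there. From MNF_ciEPC, 5 rose and 1 fell (median 0.43): Fkbp5 fell by 3.55 ± 0.23 and the oncostatin M receptor gene Osmr rose by 4.62 ± 0.66.

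The ciHep were also compared with the starting fibroblasts. In MEF_ciHep against MEF, Dbp rose by 2.49 ± 0.30 (adjusted p = 4.6e-06, edgeR) and Cebpa rose by 2.36 ± 0.49 (adjusted p = 0.000634), where 22.9% of all genes tested were called higher. Cebpd fell by 1.46 ± 0.39, Cebpb fell by 1.25 ± 0.36 and Nfil3 fell by 1.11 ± 0.25 (adjusted p = 0.00452, 0.00716 and 0.00125, edgeR), where 19.3% of genes were called lower and 42.2% in either direction. None of these 5 genes overlapped between the groups. Nfil3 was under 2-fold without MEF_ciHep replicate 2 (-0.84). In MNF_ciHep against MNF the single call was Cebpg, which fell by 1.64 ± 0.34 (adjusted p = 0.00167, edgeR; 51.13 and 59.17 against 13.47 and 12.87 TPM), where 11.6% of genes were called lower, 16.2% higher and 27.7% in either direction. The other 7 had log2 differences of -0.86 (Cebpa) to 0.81 (Hlf), with edgeR adjusted p from 0.022 (Tef, under 2-fold) to 0.533. Both comparisons share their ciHep samples with those of the preceding step.

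The last comparisons set the ciHep against pHep, whose 2 libraries differ. Replicate 2 was higher than replicate 1 for Cebpa (71.89 against 14.79 TPM), Cebpb (132.3 against 48.41) and Cebpd (25.96 against 7.23). It also had the higher sums of 12 macrophage and myeloid markers (599.4 against 238.1 TPM) and 10 fibroblast markers (6736 against 3423 TPM), and the lower sum of hepatocyte markers (20900 against 37460 TPM). Fn1 alone gave 6413 TPM of the fibroblast sum in replicate 2 and 3352 TPM in replicate 1. Col1a1 was at 46.24 TPM in replicate 2 and 1.87 TPM in replicate 1. Spi1, a defining myeloid gene, was at 22.65 and 1.31 TPM, and Elane and Mpo were at 0 in both. The part of other liver cells in these C/EBP levels was not tested.

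In MEF_ciHep against pHep, Dbp was higher by 50.6 times (95% exact counting interval 15.0 to 453; 275.1 against 2.16 counts, adjusted p = 2.04e-06, edgeR), where 15.1% of all genes tested were called higher. Cebpb was 1.39 ± 0.40 lower, Cebpd 1.61 ± 0.43 lower and Hlf 3.30 ± 0.93 lower in log2 (adjusted p = 0.0119, 0.0086 and 0.0119, edgeR), where 10.8% were called lower and 25.9% in either direction. Cebpb, Cebpd and Hlf were each below both pHep libraries in every MEF_ciHep library. Cebpa was 1.02 ± 0.48 lower (adjusted p = 0.112, edgeR), and its MEF_ciHep values lay between the 2 pHep values. Without pHep replicate 2, Cebpb (-0.75, adjusted p = 0.218, edgeR) and Cebpd (-0.68, adjusted p = 0.287) were not called and Cebpa turned to 0.28 (adjusted p = 0.73). Without pHep replicate 1, Cebpa was called (-1.69, adjusted p = 0.00898, edgeR) and Hlf was not (adjusted p = 0.0521). Cebpb was also not called without MEF_ciHep replicate 2 (-1.16, adjusted p = 0.0519, edgeR).

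In MNF_ciHep against pHep, Dbp was higher by 52.9 times (95% exact counting interval 15.5 to 477; 132 against 2.16 counts, adjusted p = 2.66e-06, edgeR). Cebpd was 1.55 ± 0.45 higher, Cebpb 1.29 ± 0.42 and Nfil3 1.09 ± 0.30 (adjusted p = 0.0117, 0.022 and 0.00892, edgeR), so that 4 members were higher, where 18.4% of all genes tested were. Cebpg had a log2 difference of -2 ± 0.348 (adjusted p = 0.000345, edgeR) and Cebpa one of -1.67 ± 0.56 (adjusted p = 0.0248), where 13.4% were called lower and 31.8% in either direction. The groups did not overlap for the 4 higher genes and Cebpg, while for Cebpa the lower pHep value (14.79 TPM) lay between the MNF_ciHep values (13.36 and 16.65 TPM). The Dbp and Cebpg calls held whichever single library was left out. Cebpb, Cebpd and Nfil3 were not called without pHep replicate 1 (adjusted p = 0.163, 0.0982 and 0.0617, edgeR) or without MNF_ciHep replicate 1 (adjusted p = 0.111, 0.08 and 0.0883). Cebpa was not called without pHep replicate 2 (-0.38, adjusted p = 0.62, edgeR), MNF_ciHep replicate 1 or MNF_ciHep replicate 2 (adjusted p = 0.07 and 0.118). Both comparisons share the pHep samples.

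Over all genes tested, 15.1% were called higher and 10.8% lower in MEF_ciHep than in pHep, and 18.4% and 13.4% in MNF_ciHep. The liver targets were lower than in pHep for both origins. Of 14, 11 were lower and none higher in MEF_ciHep (median -3.07, all genes 0.01), and 13 were lower in MNF_ciHep (median -7.49, or -6.25 with bounds, all genes 0.11). Alb was at 1035 to 2409 TPM in MEF_ciHep and 11140 and 14800 TPM in pHep. Of 14 acute phase genes, 1 was higher and 11 lower in MEF_ciHep (median -3.03), and 12 were lower in MNF_ciHep (median -6.25), where Cebpb and Cebpd were the higher ones. Hpx, the hemopexin gene, was at 170.3 to 311.5 TPM in MEF_ciHep, 1.91 and 2.43 TPM in MNF_ciHep and 2496 and 3177 TPM in pHep. Of the 18 clock genes, 3 were higher and 2 lower in MEF_ciHep, and 2 higher and 2 lower in MNF_ciHep. Rora was 3.17 ± 0.28 and 2.02 ± 0.31 lower, and Cry2 was 1.66 ± 0.27 higher in MEF_ciHep.

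Across the 9 group means of log2(TPM + 1), the pairs of members most alike were Cebpb with Nfil3 (Pearson r = 0.875), Cebpd with Nfil3 (0.807), Cebpb with Cebpd (0.746) and Cebpg with Tef (0.709). The least alike were Cebpa with Tef (-0.25). Among 15109 genes with a group mean of at least 5 TPM in some group, the 3 most like Cebpd were Cxcl5 (0.984), Ptgs1 (0.983) and Tshz2 (0.979). Cxcl5, a neutrophil chemokine gene, averaged 127.5 TPM in MNF_ciHep, 38.01 in MNF and 13.36 in MEF. Those most like Cebpa were Sp140 (0.979), Trim30a (0.976) and Cul9 (0.958), and those most like Cebpb were Plekhm2 (0.955), Fas (0.95) and Plk2 (0.948). For Nfil3 they were Slc25a51 (0.972), Ppp3cc (0.97) and Prkar1a (0.962), and for Cebpg Blcap (0.976), Spopl (0.967) and Zfp397 (0.956). For Dbp they were Rnf207 (0.947), Max (0.943) and Efs (0.943), for Tef Gm28036 (0.97), Fut1 (0.966) and Camk1g (0.964), and for Hlf Arhgef10l (0.956), Prdx2 (0.927) and Gdf15 (0.923). These are descriptions over 9 points, with no test.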

How the data were processed

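Total RNA of 28 libraries in 9 groups was sequenced after TruSeq preparation, per the labels' protocols. The authors deposited expected counts per gene and TPM per gene, made with RSEM 1.2.4 on mm10, per the submitters' processing notes. RSEM divides reads that fit several genes, so overlapping genes can share counts. The aligner, annotation release and strandedness are not given in the sources used here.

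Samples were grouped by their labelled cell type. The source name of MNF_ciEPC reads MEF, and the cell type was followed. Expected counts were rounded and the MEF_ciEPC libraries of each numbered series were summed to 1 sample, giving 20 samples. One edgeR quasi-likelihood model (edgeR 4.0.16 in R 4.3.3, scaled by TMM, genes kept by filterByExpr at min.count 10) was fitted to all groups, and 16061 genes were tested with a common biological coefficient of variation of 0.249. A call needed an adjusted p under 0.05 and a 2-fold change, and the passage trend (10 MEF_ciEPC libraries, 12390 genes) had no fold minimum. The SE is the size of the log2 change over the root of F. The procedure was tested on simulated data. Depth was 1439670 to 6133147 expected counts per library, and intervals and floors (3 counts) cover counting error only.

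The 8 members and the lists were chosen with earlier results of these data known. Besides the members, up to 3 called genes of smallest adjusted p per list and comparison could be named, and 3 genes of most similar pattern per member. Alternatives were RLE scaling, DESeq2 1.42.0, limma 3.58.1 on log2(TPM + 1), other filters, a replicate block, other sample sets and each sample left out. The alternative without series 1 passage 2 was chosen after seeing the data.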

Additional observations from a re-analysis of the deposited data

Results flagged for a closer look

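For 5 results the change in MNF cells differed from that in MEF cells by a test of the difference itself (edgeR interaction, n = 2 or 3 samples a group). For the step from fibroblast to ciEPC, Dbp had a log2 difference of -3.458. For the step from ciEPC to ciHep the log2 differences were 2.946 for Cebpb, 3.685 for Cebpd and 2.393 for Nfil3. Hlf had a fitted value of 6.544 in that step, which is no bound because MNF_ciEPC had no counts. Strain and age of the donor animals differ between the origins and cannot be told apart from them. The implied read or fragment length changed only in MEF cells in the ciEPC step and only in MNF cells in the ciHep step. Its effect cannot be told apart from these differences either. The 8 members were also tested in MEF_ciEPC, the one group of 4 to 10 libraries, for a library far from the others (Dixon's critical value 0.466), and none was found, where chance gives about 1 in 20.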

How the results depend on the processing

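Of the values for single members under the alternatives, 1520 kept direction and side of the threshold, 63 lost a call, 17 gained one and 39, all uncalled, changed sign; the cause was not tested. The Dbp calls, and the calls of ESC_EPC against ESC and of MNF_ciHep against MNF_ciEPC, were lost under no alternative run. Members called in MEF_ciEPC against MEF were 4, but 2 with limma and 2 with the replicate block. In MEF_ciEPC against ESC_EPC they were 5, but 3 without the low-count filter and 3 to 4 with a sample left out. In MEF_ciHep against pHep they were 4, but 2 with the 10 MEF_ciEPC libraries as separate samples and 2 to 4 with a sample left out. In MNF_ciHep against pHep they were 6, but 3 with separate libraries, 3 with only the compared groups fitted and 2 to 5 with a sample left out. In MEF_ciHep against MEF they were 5, but 2 with separate libraries. In MNF_ciHep against MNF they were 1, but 2 with no fold minimum. In the ciEPC step difference they were 1, and 1 to 2 with a sample left out. In the ciHep step difference they were 4, and 3 to 5 with a sample left out. There the Hlf call was also lost with limma (adjusted p = 0.0764), with MEF_ciEPC up to passage 5 (adjusted p = 0.0886, edgeR) and with only the compared groups (adjusted p = 0.093), while Cebpa gained a call with only the compared groups (-1.943, adjusted p = 0.0452, edgeR) and Cebpg up to passage 5 (-1.248, adjusted p = 0.0395). In MEF_ciHep against MEF_ciEPC they were 3, and 2 to 4 with a sample left out.

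Sign changes in MEF_ciEPC against MEF were Cebpg (limma 0.006, replicate block 0.101, without series 2 passage 22 0.002, left-out samples -0.303 to 0.159) and Tef (limma 0.083, up to passage 5 0.036). Against ESC_EPC, Cebpd gave 0.083 without the filter, 0.067 with separate libraries, 0.082 without series 2 passage 22, 0.00 with only the compared groups, and -0.763 to 0.424 with a sample left out. Hlf in ESC_EPC against ESC gave 0.041 with limma. Nfil3 in MEF_ciHep against MEF_ciEPC gave 0.088 with RLE, 0.089 with DESeq2, 0.036 at a minimum count of 50, 0.152 up to passage 5, and -0.346 to 0.232 with a sample left out. Tef in MNF_ciHep against MNF_ciEPC gave -0.161 with limma, -0.034 without the filter and -0.144 to 0.081. Against pHep, left-out samples gave -1.686 to 0.275 for Cebpa in MEF_ciHep, and in MNF_ciHep -0.421 to 0.729 for Hlf (limma -0.93) and -0.32 to 0.366 for Tef (limma 0.267, no filter 0.023). Cebpb in the ciEPC step difference gave -1.661 to 0.043. Passage slopes changed sign for Cebpd (0.012 without series 2 passage 22, 0.137 in series 1 alone), Cebpg (limma 0.056, 0.054 and 0.196 likewise), Dbp (0.022 without series 1 passage 2) and Nfil3 (-0.015 with untransformed passage).

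Same-numbered samples did not deviate together (73 pairs, correlations -0.163 to 0.085). With 2 or 3 samples a group, these correlations cannot decide whether same-numbered samples share a donor or culture. The labels do not say what the numbers mean. With the replicate block, Hlf (-2.072, adjusted p = 0.149, edgeR) and Nfil3 (-0.987) in MEF_ciEPC against MEF, and Hlf against ESC_EPC (-2.746, adjusted p = 0.0538, edgeR), lost their calls.

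Over all genes, limma moved the median by 0.155 in MEF_ciEPC against MEF (share higher among calls 52.65% to 63.39%) and by -0.168 in MEF_ciHep against MEF_ciEPC (54.59% to 39.94%). DESeq2 moved it by -0.116 in the first, -0.106 in MNF_ciHep against pHep and 0.116 in the ciEPC step difference. With separate libraries, genes called lower were 1454 against 2354 in ESC_EPC against ESC, 1052 against 1739 in MNF_ciHep against MNF_ciEPC and 1101 against 1857 in MNF_ciHep against MNF. In the ciEPC step difference, 499 against 990 were then higher and 428 against 1435 lower. Leaving out an MNF or MNF_ciEPC replicate gave as few as 532 higher and 708 lower there. With only the compared groups, 1722 against 2950 were higher in MNF_ciHep against pHep. With no fold minimum, genes called lower were 3776 against 2383 in MEF_ciHep against MEF_ciEPC, 2808 against 1739 in MNF_ciHep against MNF_ciEPC and 2666 against 1737 in MEF_ciHep against pHep. The passage trend called 1 gene higher and 2 lower, against 94 and 139 with DESeq2, 0 and 0 with limma, 10 and 8 without the filter, 15 and 35 without series 2 passage 22, 10 and 29 in series 1 alone, 5 and 16 with untransformed passage, and 3 higher without series 1 passage 2. Depth limits Hlf, whose groups held 0 to 31 counts, and Dbp in pHep.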
